A study of Zea mays with 8 samples.

Results

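The genes wip1 and MPI encode small wound-induced inhibitors of serine proteinases, and their RNA levels were followed in maize (Zea mays) anthers, the organs of the tassel that make pollen. Both were chosen by gene ID, with earlier results of these data known, and they are 2 of the 39604 genes in the deposited values. Because they were chosen for their difference between genotypes, their levels are given as a description and no test was made on them.

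The 4 groups were hda108 mitotic anthers, WT mitotic anthers, hda108 post-meiotic anthers and WT post-meiotic anthers. Below, after meiosis is short for post-meiotic anthers. The phrase does not place the mitotic anthers before meiosis, and the order of the stages in time was not tested. The hda108 plants carried mutant alleles of HDA108 (hda108/hda108), which encodes a histone deacetylase, an enzyme that takes acetyl groups off histones, and the WT plants were wild-type. The plants grew in the field, and each group had 2 libraries, each made from pooled anthers of several tassels. The authors deposited 1 value per gene and group, in FPKM (fragments scaled to transcript length and to the number of mapped fragments), so no spread between libraries can be given and every difference below lacks a replicate check. Sequencing depth is unknown.

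Proteinase inhibitors of plants block the digestive enzymes of chewing insects and of some microbes. When a leaf is wounded, lipoxygenases and further enzymes turn membrane fatty acids into jasmonate, a hormone that switches on inhibitor and other defence genes. The wip1 protein is of the Bowman-Birk type, a compact fold held by disulfide bridges that binds trypsin-like and chymotrypsin-like proteinases. MPI, the maize proteinase inhibitor, also named sci1, is of the potato inhibitor I type and acts on chymotrypsin-like and elastase-like enzymes.

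Both genes lie on chromosome 8 in the B73 RefGen_v3 coordinates of the deposited values. The locus of wip1 (GRMZM2G156632) runs from 12275984 to 12276693, and that of MPI (GRMZM2G028393) from 133996632 to 133997534. The loci span 710 and 903 bp, against a median of 3409 bp for the tested genes, and 121.72 Mb lie between them.

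The mutated gene itself had 4.30 FPKM in hda108 mitotic anthers, against 6.43 FPKM in WT mitotic anthers, and 4.10 FPKM in hda108 post-meiotic anthers, against 12.3 FPKM in WT post-meiotic anthers. The labels do not say where the mutation lies in HDA108, so these levels are no full check of the genotype labels. The direction at the mitotic stage turned when each group was rescaled to an FPKM sum of 1000000, where the log2 difference was 0.66. Of 12 genes fixed as markers of tapetum, pollen wall and pollen, 0 were listed at 0 in any group, and their summed level was 3991 FPKM in hda108 mitotic anthers, against 22614 FPKM in WT mitotic anthers, and 3000 FPKM in hda108 post-meiotic anthers, against 14921 FPKM in WT post-meiotic anthers. Of 11 tested markers, 6 were at least 4-fold lower and 0 higher in hda108 at the mitotic stage. After meiosis 6 were lower and 1, ms8, was higher. Of all tested genes 8.12% were lower and 1.52% higher at the mitotic stage, with 4.47% and 1.68% after meiosis. Among genes with a mean of 100 to 1000 FPKM over the groups, 34.4% were lower at the mitotic stage and 25.1% after meiosis. After rescaling 0 markers were lower at the mitotic stage and 3 after meiosis, and with quantile normalization 1 and 3. Levels of RNA in whole anthers cannot tell a change in the share of a cell type from a change in RNA per cell, and the part of these markers in the results below was not tested.

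The wip1 RNA was abundant in both hda108 groups. It had 473 FPKM in hda108 mitotic anthers, against 42.1 FPKM in WT mitotic anthers, and 789 FPKM in hda108 post-meiotic anthers, against 9.48 FPKM in WT post-meiotic anthers. The lower of the hda108 values was thus above both WT values. Among all genes of a group, ordered from the highest level, wip1 stood at place 93 in hda108 mitotic anthers, against place 3721 in WT mitotic anthers. After meiosis it stood at place 66 in hda108, against place 11914 in WT.

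**Figure D1:**
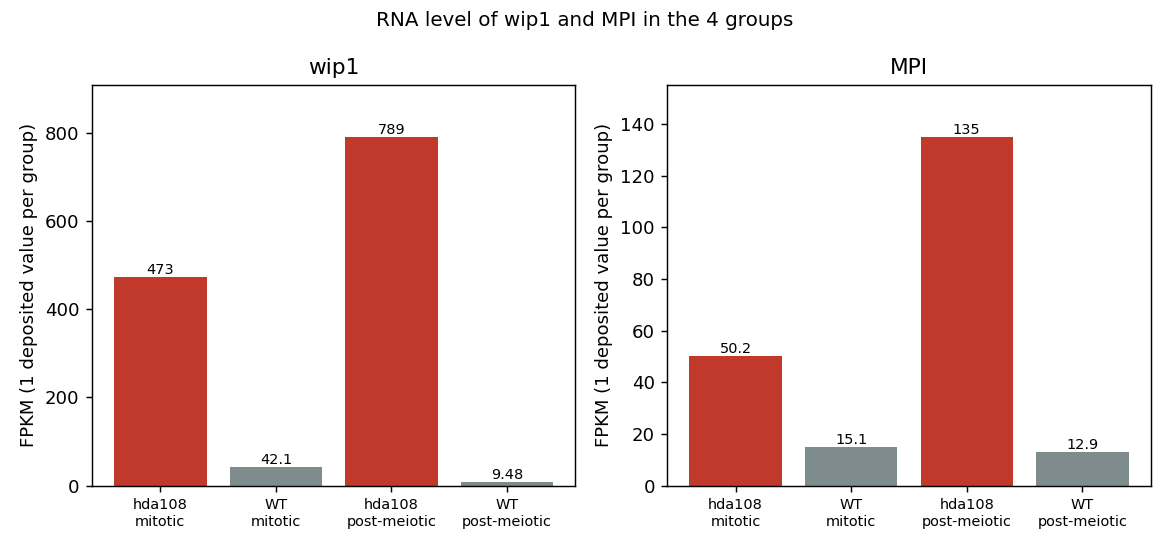
Deposited level (FPKM, linear axis from 0) of wip1 and MPI in each of the 4 groups, 1 value per group and no error bar. For wip1 the hda108 bars stand at 473 and 789 FPKM, against 42.1 and 9.48 FPKM in WT, and for MPI at 50.2 and 135 FPKM, against 15.1 and 12.9 FPKM in WT.

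MPI showed the same order of the groups within each stage, at lower levels in hda108. It had 50.2 FPKM in hda108 mitotic anthers, against 15.1 FPKM in WT mitotic anthers, and 135 FPKM in hda108 post-meiotic anthers, against 12.9 FPKM in WT post-meiotic anthers. Both hda108 values were above both WT values, and the WT values lay close to each other. Its place among all genes was 1803 in hda108 and 7757 in WT at the mitotic stage, and 851 in hda108 and 9938 in WT after meiosis.

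As the unit is per transcript length, the levels of both genes can be set against each other. The level of wip1 was 9.42 times that of MPI in hda108 mitotic anthers, against 2.79 times in WT mitotic anthers. It was 5.85 times that of MPI in hda108 post-meiotic anthers, against 0.733 times in WT post-meiotic anthers, the 1 group in which MPI was the more abundant RNA.

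The genotype comparison asked how RNA levels in hda108 differed from those in WT at each stage. The level of wip1 was 11.2-fold higher in hda108 than in WT at the mitotic stage and 83.3-fold higher after meiosis. The level of MPI was 3.32-fold and 10.4-fold higher. On the scale of log2(FPKM + 1), which understates the change of low genes, the differences were 3.46 and 6.24 for wip1 and 1.67 and 3.29 for MPI. A gene was called higher or lower where this difference reached 2, a 4-fold difference for abundant genes. By that rule wip1 was higher at both stages, and MPI after meiosis but not at the mitotic stage.

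Of 24360 tested genes, those with at least 1 FPKM in some group, 1.52% were called higher in hda108 at the mitotic stage and 8.12% lower. After meiosis 1.68% were called higher and 4.47% lower, and 0.722% were higher at both stages. Because the members were picked on this contrast, their calls are set beside these shares without being read against them. Ordered from the largest positive difference, wip1 stood at place 59 of the tested genes at the mitotic stage and at place 9 after meiosis, and MPI at places 603 and 99. Among genes with a mean of 100 to 1000 FPKM over the groups, the range of wip1, 2.31% were higher at the mitotic stage, against 34.4% lower, with 2.23% higher and 25.1% lower after meiosis. Among those with a mean of 10 to 100 FPKM, the range of MPI, 1.42% were higher at the mitotic stage, against 10.7% lower, with 1.35% higher and 5.22% lower after meiosis. Among genes spanning at most 1000 bp, as both members do, 3.10% were higher at the mitotic stage, against 17.0% lower, with 4.06% higher and 9.33% lower after meiosis.

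**Figure D2:**
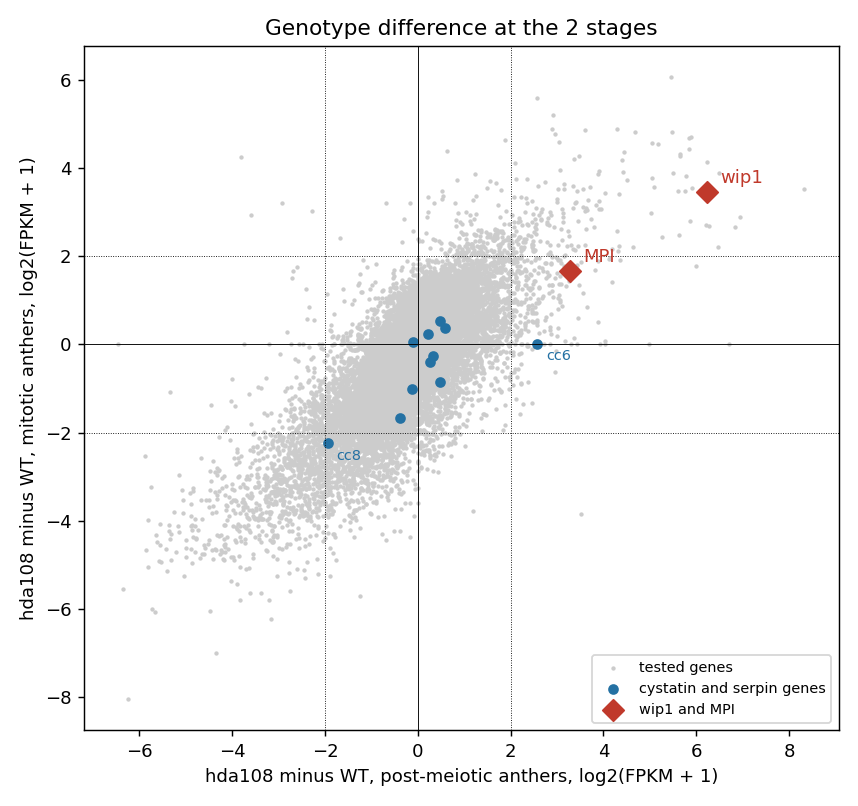
Difference hda108 minus WT in log2(FPKM + 1), post-meiotic anthers on the horizontal and mitotic anthers on the vertical axis, for wip1 and MPI (diamonds), 11 cystatin and serpin genes (blue points) and all tested genes (grey points). Dotted lines mark differences of 2 in either direction; wip1 lies at 6.24 and 3.46, MPI at 3.29 and 1.67, and cc6 at 2.57 after meiosis.

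The FPKM sums of the groups were unequal, at 505427 in hda108 and 1284190 in WT at the mitotic stage and at 701133 in hda108 and 1069800 in WT after meiosis. After rescaling, which sets every group to 1000000 FPKM in all, the median over the tested genes was 1.05 log2 between genotypes at the mitotic stage and 0.50 after meiosis, against -0.02 and -0.03 as deposited. Relative to that shifted median, the rescaled difference of wip1 was 3.74 log2 at the mitotic stage and 6.34 after meiosis, and that of MPI 1.92 and 3.39. Before the median was taken off, the rescaled wip1 difference at the mitotic stage was 4.79, and with quantile normalization it was 4.90, against 3.46 as deposited. The rescaled MPI difference was 2.97 at the mitotic stage, past the 4-fold rule, and with quantile normalization it was 2.25. At the mitotic stage rescaling gave 3343 genes higher and 601 lower, and quantile normalization 551 and 1331, against 371 and 1979 as deposited. After meiosis rescaling gave 823 genes higher and 663 lower, against 410 and 1090.

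The stage comparison asked what differed between mitotic and post-meiotic anthers of a genotype. In WT, wip1 was 4.44-fold higher at the mitotic stage, a difference of 2.04 log2 that just passed the 4-fold rule. In hda108 its mitotic level was 0.599 times the post-meiotic one, a difference of -0.74. MPI had a mitotic level of 0.372 times the post-meiotic one in hda108, a difference of -1.41. In WT its level differed little between stages, by 0.21 log2, and this direction turned after rescaling, to -0.04. The shares of tested genes called between stages were 1.02% higher and 2.94% lower in hda108, and 1.35% higher and 1.46% lower in WT. The counts were 248 higher and 715 lower in hda108 and 328 and 356 in WT, which became 465 and 466 in hda108 and 213 and 463 in WT after rescaling. Quantile normalization gave 454 and 538 in hda108 and 325 and 228 in WT, and median-of-ratios scaling 354 and 437 in hda108 and 487 and 231 in WT. After rescaling, the difference of wip1 in WT was 1.78, short of the rule.

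The genotype difference of both genes was thus smaller at the mitotic stage than after meiosis. Subtracting the post-meiotic difference from the mitotic one gave -2.78 log2 for wip1 and -1.62 for MPI, against a median of 0.02 over all tested genes, of which 2.03% lay at -2 or below and 0.423% at 2 or above. In 15.0% of tested genes, as in wip1 and MPI, the mitotic level was below the post-meiotic one in hda108 and above it in WT, and in 2.18% by at least 0.5 log2 in both. For wip1 the 2 stages of WT made up much of this, since its WT level was 42.1 FPKM at the mitotic stage and 9.48 FPKM after meiosis. For MPI the WT levels were near each other, and the hda108 levels of 50.2 FPKM at the mitotic stage and 135 FPKM after meiosis stood apart. These comparisons share the same 4 groups and are not independent of each other.

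Genes with a pattern like each member were found by the distance between the log2(FPKM + 1) values of the 4 groups, each gene centred on its own mean. With 4 points per gene this is a description, and nothing on shared function or control follows from it. The 5 nearest genes with an informative name for wip1 were mis1 (GRMZM2G090245, also named ALDH12, of the aldehyde dehydrogenases, an ID that the name table also gives to an unnamed gene), at a distance of 0.77, plt1 (GRMZM2G101958, also named PLTP) at 0.84, AGA1 (GRMZM2G340656) at 0.91, lox10 (GRMZM2G015419), a lipoxygenase gene, at 1.22 and gt1 (GRMZM2G005624), the homeodomain gene grassy tillers1, at 1.46. The gene mis1 had 301 FPKM in hda108 and 46.9 FPKM in WT mitotic anthers, and 661 FPKM in hda108 and 4.80 FPKM in WT post-meiotic anthers. It followed wip1 closely in level as well as in pattern. The most abundant of the 5, plt1, had 2288 FPKM in hda108 and 407 FPKM in WT mitotic anthers, and 3666 FPKM in hda108 and 73.1 FPKM in WT post-meiotic anthers. Like wip1, all 5 had a WT level that was higher at the mitotic stage. In WT mitotic and WT post-meiotic anthers AGA1 had 38.5 and 17.4 FPKM, lox10 2.93 and 1.76 FPKM and gt1 2.01 and 1.24 FPKM. Unlike wip1, gt1 had an hda108 level that was higher at the mitotic stage than after meiosis, at 83.4 and 56.9 FPKM.

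**Figure D3:**
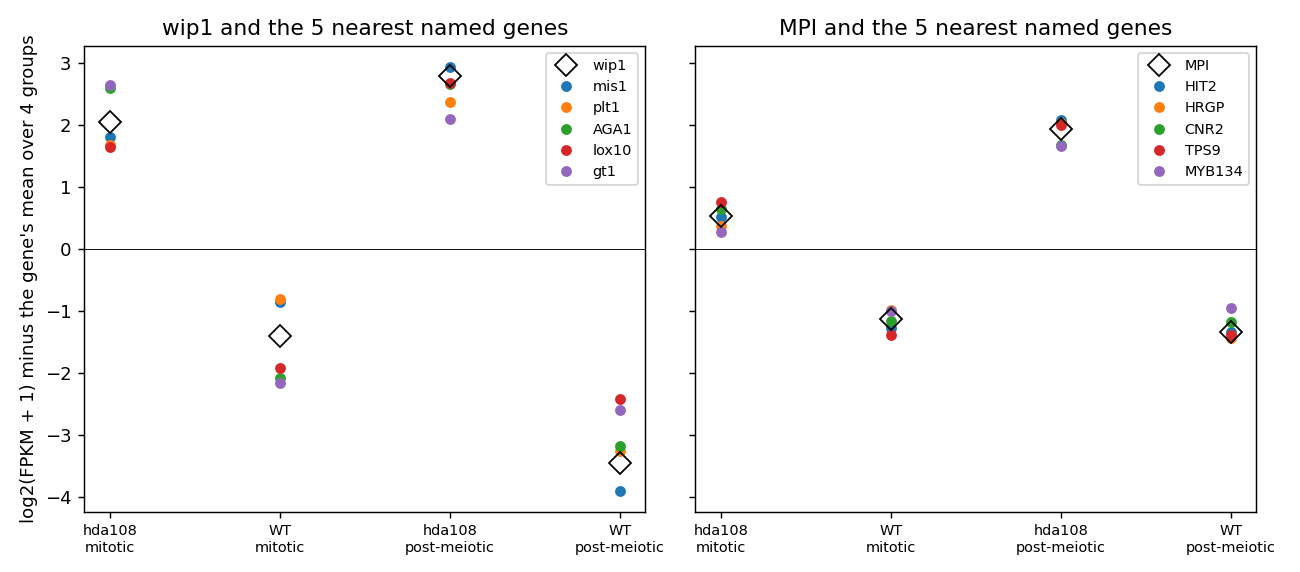
log2(FPKM + 1) in each of the 4 groups minus the gene's own mean over the groups, for wip1 (left) and MPI (right) as open diamonds and for the 5 nearest named genes of each as points. The points of MPI's neighbours lie within 0.57 of it in distance over the 4 groups, those of wip1 between 0.77 and 1.46.

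By this distance MPI had more near genes than wip1. The distance was not scaled to the size of a gene's genotype differences, which were smaller for MPI, and the added 1 FPKM compresses low levels. The numbers of near genes thus do not measure likeness evenly for both members. A distance of at most 0.5 held 21 tested genes around MPI and 0 around wip1, and one of at most 1 held 133 and 9. Its 5 nearest named genes were HIT2 (GRMZM2G126765) at 0.20, HRGP (GRMZM2G168651), a hydroxyproline-rich glycoprotein gene of the cell wall, at 0.25, CNR2 (GRMZM2G151230), of the cell number regulators, at 0.33, TPS9 (GRMZM2G465812) at 0.35 and the MYB gene MYB134 (GRMZM2G001824) at 0.57. All 5 were less abundant than MPI. In WT, TPS9 had 0.0468 FPKM at the mitotic stage and 0.0483 FPKM after meiosis. With a pseudocount of 0.1 its genotype differences were 4.67 log2 at the mitotic stage and 6.08 after meiosis, against 1.73 and 3.37 for MPI. With that pseudocount HRGP had 1.57 and 3.91, HIT2 2.44 and 4.26, CNR2 2.81 and 4.01 and MYB134 2.89 and 4.43. The nearest, HIT2, had 5.92 FPKM in hda108 and 1.01 FPKM in WT mitotic anthers, and 19.6 FPKM in hda108 and 0.927 FPKM in WT post-meiotic anthers. The distance between wip1 and MPI was 2.74. By nearness to wip1, MPI stood at place 109, and by nearness to MPI, wip1 stood at place 12951, with 24360 genes tested.

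The 5 genes of the deposited values on each side of wip1 are given next. Of these 10 genes 7 were tested. Of all tested genes 1.52% were called higher in hda108 and 8.12% lower at the mitotic stage, with 1.68% and 4.47% after meiosis. Among the 7 neighbours 0 passed the 4-fold rule between genotypes after meiosis and 1 at the mitotic stage, too few to read against these shares. That gene, GRMZM2G095964, lies 352 kb away and went the other way, with 114 FPKM in hda108 and 615 FPKM in WT mitotic anthers, and 229 FPKM in hda108 and 204 FPKM in WT post-meiotic anthers. After rescaling its mitotic difference was -1.08 log2, short of the rule, and -0.84 with quantile normalization. The nearest gene, GRMZM2G156713, 8.66 kb from wip1, had 2.46 FPKM in hda108 and 2.09 FPKM in WT mitotic anthers, and 3.43 FPKM in hda108 and 3.46 FPKM in WT post-meiotic anthers.

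**Figure D4:**
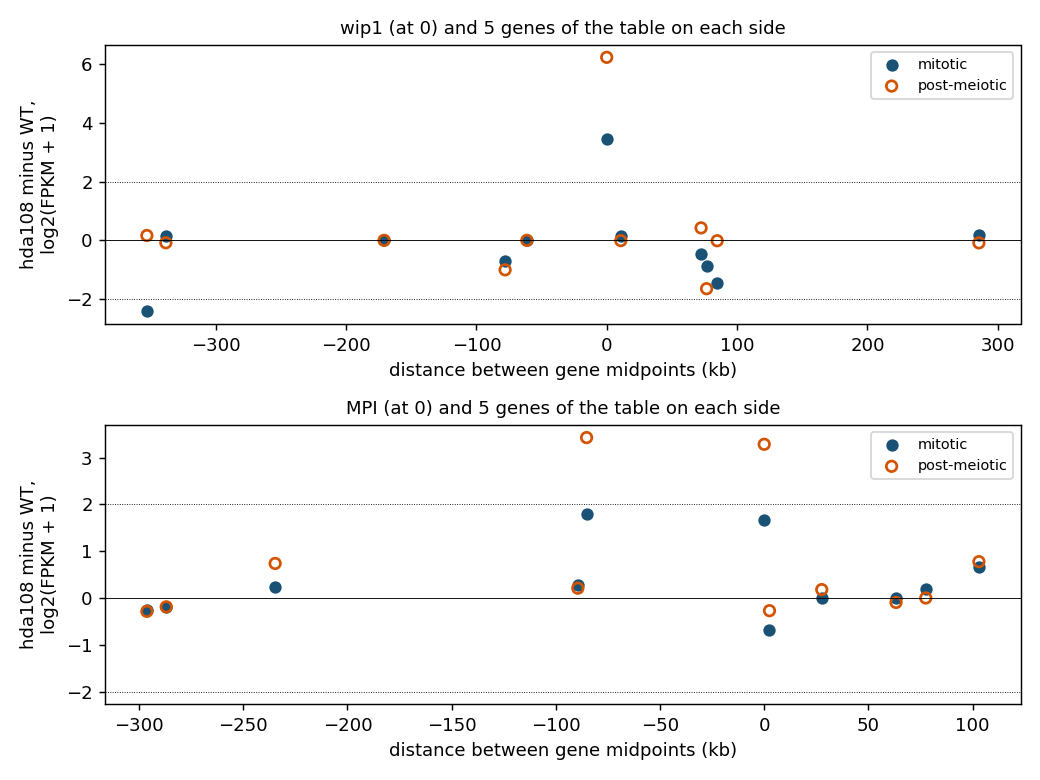
Difference hda108 minus WT in log2(FPKM + 1) for wip1 (top) and MPI (bottom), each at 0 kb, and for 5 genes on each side, by the distance between gene midpoints in kb, at the mitotic (filled) and post-meiotic (open) stage. Dotted lines mark differences of 2; the leftmost gene of the wip1 panel, GRMZM2G095964, lies at -2.42 at the mitotic stage, and the gene next to the left of MPI, GRMZM2G042789, lies at 3.43 after meiosis, near the 3.29 of MPI.

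Beside MPI, 8 of 10 neighbours were tested. Over all tested genes the shares called higher and lower in hda108 were 1.68% and 4.47% after meiosis, and 1.52% and 8.12% at the mitotic stage. With so few neighbours nothing is read against these shares. Between genotypes 1 neighbour passed the rule, after meiosis. It was GRMZM2G042789 (chromosome 8, 133911569 to 133912100), the next gene on the side of lower coordinates, 84.5 kb from MPI. It had 4.35 FPKM in hda108 and 0.540 FPKM in WT mitotic anthers, and 120 FPKM in hda108 and 10.2 FPKM in WT post-meiotic anthers. It was 8.05-fold higher in hda108 at the mitotic stage, short of the rule on the log2(FPKM + 1) scale, and 11.7-fold higher after meiosis, or 3.43 on that scale. At the mitotic stage it passed the rule after rescaling, with 2.76, and with a pseudocount of 0.1. Unlike MPI it differed between stages in both genotypes, by -4.50 log2 in hda108 and by -2.87 in WT. The gene on the other side, GRMZM2G028986, only 0.917 kb away, had 65.7 FPKM in hda108 and 106 FPKM in WT mitotic anthers, and 139 FPKM in hda108 and 168 FPKM in WT post-meiotic anthers. The direction of its difference turned after rescaling, to 0.65 and 0.33 log2.

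The list of other proteinase inhibitor genes held 9 cystatins, which inhibit cysteine proteinases, and 2 serpins, which mostly act on serine proteinases, and all 11 were tested. At the mitotic stage 0 were called higher in hda108 and 1 lower, against 1.52% and 8.12% of all tested genes, with a list median of -0.27 log2, against -0.02 for all tested genes. After meiosis 1 was called higher and 0 lower, against 1.68% and 4.47% of all tested genes, with a median of 0.27, against -0.03. With single genes called, nothing about the list follows from these counts. The mitotic median turned to 1.07 after rescaling, against 1.05 for all genes, and to 0.05 with quantile normalization.

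The cystatin gene cc6 (GRMZM2G401328) was the 1 called higher. It had 4.05 FPKM in hda108 and 4.04 FPKM in WT mitotic anthers, and 7.92 FPKM in hda108 and 0.5003 FPKM in WT post-meiotic anthers, so its WT level, like that of wip1, was higher at the mitotic stage. The cystatin gene cc8 (GRMZM2G401374) went the other way, with 12.5 FPKM in hda108 and 62.7 FPKM in WT mitotic anthers, and 20.6 FPKM in hda108 and 82.1 FPKM in WT post-meiotic anthers. It passed the rule at the mitotic stage with -2.24 log2, and fell short of it after rescaling with -0.96 and with quantile normalization with -1.75. Of the more abundant cystatins, cc4 (GRMZM2G013461) had 275 FPKM in hda108 and 218 FPKM in WT, and cc5 (GRMZM2G024264) 266 FPKM in hda108 and 291 FPKM in WT after meiosis. At the mitotic stage cc5 had 138 FPKM in hda108 and 280 FPKM in WT, short of the rule. The direction of this difference turned after rescaling, to 0.32 log2, and with quantile normalization, to 0.44, and so did that of cc5 after meiosis, to 0.48 and 0.61. One serpin gene, GRMZM2G066996, had 11.6 FPKM in hda108 and 7.75 FPKM in WT mitotic anthers, and 16.3 FPKM in hda108 and 11.4 FPKM in WT post-meiotic anthers. The other, GRMZM5G865319, had 2.61 FPKM in hda108 and 2.46 FPKM in WT mitotic anthers, and 6.02 FPKM in hda108 and 6.52 FPKM in WT post-meiotic anthers.

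**Figure D5:**
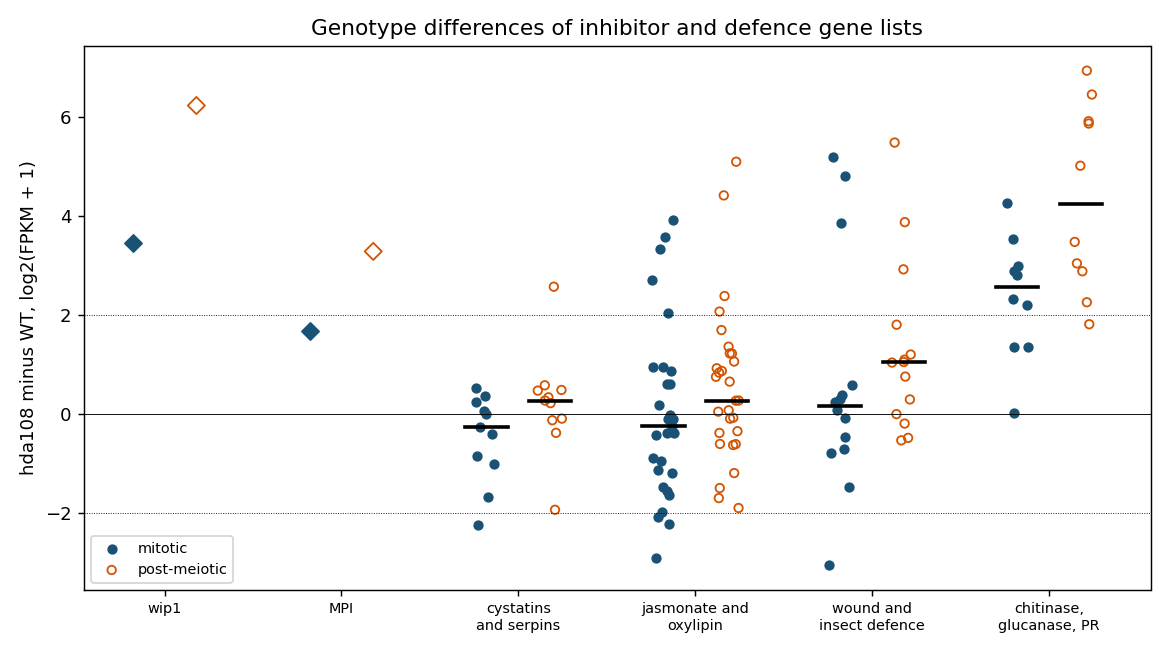
Difference hda108 minus WT in log2(FPKM + 1) at the mitotic (filled) and post-meiotic (open) stage for wip1 and MPI (diamonds) and for the tested genes of 4 lists (1 point per gene, shifted sideways at random, black bars at the list medians). The chitinase, glucanase and PR list has medians of 2.56 and 4.25, the cystatins and serpins -0.27 and 0.27.

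The next list held genes that make or sense jasmonate, the hormone of the wound response. Of 29 tested members of a list of lipoxygenases, allene oxide synthases and cyclases, oxophytodienoate reductases, ZIM-domain genes, a MYC factor and the tassel-seed genes, 5 were called higher and 3 lower in hda108 at the mitotic stage, and 4 higher and 0 lower after meiosis. Of all tested genes 1.52% were higher at the mitotic stage, against 8.12% lower, with 1.68% and 4.47% after meiosis, so that the count of lower genes at the mitotic stage was near that over all genes. The list median was -0.25 log2 at the mitotic stage and 0.27 after meiosis. After rescaling 8 were higher and 0 lower at the mitotic stage, with a median of 0.90, against 1.05 for all genes. The lipoxygenase gene lox10 had 45.7 FPKM in hda108 and 2.93 FPKM in WT mitotic anthers, and 93.8 FPKM in hda108 and 1.76 FPKM in WT post-meiotic anthers. The allene oxide synthase gene aos (GRMZM2G067225) passed the rule at the mitotic stage alone, where it was 4.78-fold higher. Of the others called higher, lox1 (GRMZM2G156861) was 20.8-fold higher at the mitotic stage and 26.2-fold after meiosis, lox6 (GRMZM2G040095) 8.51-fold and 5.70-fold, and the reductase gene opr6 (GRMZM2G068947) 59.9-fold and 6.05-fold. The mitotic ratio of opr6 rests on a low WT level of 0.183 FPKM, and its difference in log2(FPKM + 1) was 3.34 there. On the lower side, lox4 (GRMZM2G109056) had 13.9 FPKM in hda108 and 112 FPKM in WT mitotic anthers, and lox12 (GRMZM2G106748) 0.801 FPKM in hda108 and 7.48 FPKM in WT mitotic anthers.

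A list of wound and insect defence genes had 14 tested members, of which 3 were called higher in hda108 at each stage, 1 lower at the mitotic stage and 0 lower after meiosis. Of all tested genes 1.52% were higher and 8.12% lower at the mitotic stage, with 1.68% and 4.47% after meiosis. The 1 lower member at the mitotic stage was near that share. The list median was 0.16 log2 at the mitotic stage and 1.04 after meiosis, against -0.02 and -0.03 for all tested genes. After rescaling the list medians were 1.10 and 1.49, against 1.05 and 0.50 for all genes. The ribosome-inactivating protein gene rip2 (GRMZM2G119705) had 134 FPKM in hda108 and 3.84 FPKM in WT mitotic anthers, and 300 FPKM in hda108 and 5.72 FPKM in WT post-meiotic anthers. The benzoxazinoid gene BX14 (GRMZM2G127418) was 20.1-fold higher at the mitotic stage and 25.5-fold after meiosis. The terpene synthase entry tps6/11 (GRMZM2G127087), an ID that the name table gives to 2 genes, had 44.2 FPKM in hda108 and 0.236 FPKM in WT mitotic anthers, and 44.5 FPKM in hda108 and 5.01 FPKM in WT post-meiotic anthers. The gene mir1 (GRMZM2G150276), which encodes a cysteine proteinase of insect resistance, went the other way, with 12.8 FPKM in hda108 and 114 FPKM in WT mitotic anthers. Its post-meiotic levels were 39.3 FPKM in hda108 and 57.5 FPKM in WT, a direction that turned after rescaling, to 0.06 log2. After rescaling its mitotic difference was -1.77 log2, short of the rule.

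Of the 4 lists, the highest medians were those of chitinases, glucanases and pathogenesis-related (PR) proteins, which attack fungal walls or accumulate on infection. This list had been chosen with its high values in hda108 known. Of 10 tested members 7 were called higher at the mitotic stage and 9 after meiosis, with 0 lower at either stage. Of all tested genes 1.52% were higher and 8.12% lower at the mitotic stage, with 1.68% and 4.47% after meiosis. The list medians were 2.56 and 4.25 log2, against -0.02 and -0.03 for all tested genes. As deposited, the 10 members of the list were all lower at the mitotic stage than after meiosis in hda108, 6 of them by the rule. The direction of PR10, at -0.21 log2, turned under each of the other scalings. The difference of chiB was smaller still, at -0.18, so its direction is no firmer. The chitinase gene chiA (GRMZM2G051943) had 370 FPKM in hda108 and 49.0 FPKM in WT mitotic anthers, and 2928 FPKM in hda108 and 22.8 FPKM in WT post-meiotic anthers. It shared with wip1 a WT level that was higher at the mitotic stage and an hda108 level that was higher after meiosis. The members sip1, Gns1, chn1, geb1, PR-5 and PR10 also passed the rule at both stages.

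Markers of green tissue were also compared. Of 6 tested markers 0 were called between genotypes at either stage, and their summed level, over 7 genes, was 270 FPKM in hda108 and 212 FPKM in WT mitotic anthers, and 661 FPKM in hda108 and 417 FPKM in WT post-meiotic anthers. The medians of the tested markers were 0.33 and 0.64 log2, against -0.02 and -0.03 for all tested genes. Of all tested genes 1.52% were called higher and 8.12% lower at the mitotic stage, with 1.68% and 4.47% after meiosis. Of the tested markers 4 had higher values in hda108 than in WT at the mitotic stage and 6 after meiosis, and 0 were listed at 0. The malic enzyme gene ME1 (GRMZM2G085019) was 5.81-fold and 2.35-fold higher, and the Rubisco activase gene RA (GRMZM2G162200) 2.07-fold and 2.11-fold. The mitotic WT level of ME1 was low, at 0.584 FPKM. The 2 markers with lower values in hda108 at the mitotic stage were CP22 (GRMZM2G077333), at 0.770 times the WT level, and LHCP (GRMZM2G120619), at 0.475 times. Both mitotic levels of LHCP were low, at 0.110 FPKM in hda108 and 0.232 FPKM in WT. After rescaling 2 markers were called higher at the mitotic stage, with medians of 1.64 log2 there and 1.17 after meiosis, and with quantile normalization 1, with medians of 1.07 at both stages. A pseudocount of 0.1 also called 1 higher at the mitotic stage. How these markers bear on wip1 and MPI was not tested.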

How the data were processed

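RNA of 8 libraries (4 groups of 2) was sequenced from strand-specific libraries after ribosomal RNA depletion, per the labels' protocols. Tools named in the submitters' processing notes, without their roles, are Cufflinks and Cuffdiff 2.2.1, TopHat2 2.0.13, SAMtools, Trimmomatic 0.33 and CASAVA 1.8, and the build named there is B73 RefGen_v3. For each group the authors deposited a single FPKM value per gene, per the file headers. Not given in the sources used here are how replicates were combined, how groups were scaled, and how reads of similar or overlapping genes were placed. The columns headed homo were taken as hda108. They hold no counts, so no interval or floor is given.

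A gene was tested, that is compared with the 4-fold rule, where its level reached 1 FPKM in any group, and no further scaling was applied. Differences were taken on log2(FPKM + 1), and 2 or more was called. Folds are ratios of FPKM. No p-value was computed. Names came from RefSeq genes (assembly Zm-B73-REFERENCE-NAM-5.0), a table that matched 19060 IDs, 521 of them to more than 1 gene, and 2847 had an informative name. List members were found by symbol. Those sharing only a symbol were left out by hand, and the serpins were added after the name table was read.

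Members and lists were chosen with earlier results of these data known. Named genes are the members, HDA108, the 5 nearest named genes by pattern, up to 6 called genes of each list, and called neighbours; other genes in the text were picked after their values were seen. The search for related proteins and for promoter motifs that had been planned was not run, since no sequences were used here. Alternatives were a pseudocount of 0.1, rescaling to a sum of 1000000, quantile normalization, median-of-ratios scaling over 11475 genes with at least 5 FPKM in every group, no filter, and rules of 1 and 3 log2. Python 3.11.15, numpy 2.4.6, pandas 2.3.3 and matplotlib 3.10.9 were used, and the computations were tested on simulated data.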

Additional observations from a re-analysis of the deposited data

Results flagged for a closer look

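Several genes named above had stage differences of opposite sign in the genotypes. With 1 value per group, the difference between genotypes was not tested, and small values are listed with large ones. In 15.0% of the 24360 tested genes the mitotic level was below the post-meiotic one in hda108 and above it in WT, and in 2.18% by at least 0.5 log2 in both. The mitotic minus post-meiotic difference, in log2(FPKM + 1), was -0.74 in hda108 and 2.04 in WT for wip1, and -1.41 in hda108 and 0.21 in WT for MPI. Among the genes near wip1 in pattern, mis1 had -1.13 in hda108 and 3.05 in WT, plt1 had -0.68 in hda108 and 2.46 in WT, AGA1 had -0.063 in hda108 and 1.10 in WT, and lox10 had -1.02 in hda108 and 0.51 in WT. Among those near MPI, HIT2 had -1.57 in hda108 and 0.061 in WT, HRGP had -1.65 in hda108 and 0.45 in WT, and CNR2 had -1.03 in hda108 and 0.015 in WT. The cystatin gene cc6 had -0.82 in hda108 and 1.75 in WT, and the proteinase gene mir1 had -1.55 in hda108 and 0.98 in WT. The chitinase gene chiA had -2.98 in hda108 and 1.07 in WT, and chn1 had -1.54 in hda108 and 0.50 in WT. For chiB, whose rescaled stage differences are not given here, the values were -0.18 in hda108 and 1.36 in WT. The wip1 neighbour GRMZM2G095964 had -0.997 in hda108 and 1.59 in WT. After rescaling the WT directions of MPI, HIT2 and CNR2 and the hda108 direction of AGA1 turned, and with quantile normalization the hda108 directions of AGA1 and plt1 did. The opposite order was found for opr6, with 0.068 in hda108 and -1.20 in WT, for HDA108, with 0.055 in hda108 and -0.84 in WT, and for ME1, with 0.28 in hda108 and -0.42 in WT.

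The hda108 minus WT difference had opposite signs at the stages in GRMZM2G095964, with -2.42 in mitotic and 0.16 in post-meiotic anthers, in GRMZM2G156713, with 0.16 in mitotic and -0.0095 in post-meiotic anthers, in cc4, with -0.27 in mitotic and 0.33 in post-meiotic anthers, and in the serpin gene GRMZM5G865319, with 0.063 in mitotic and -0.10 in post-meiotic anthers. The green tissue marker CP22 had -0.37 in mitotic and 0.51 in post-meiotic anthers, and LHCP had -0.15 in mitotic and 1.13 in post-meiotic anthers. These differences between stages were not tested, and the mitotic direction of cc4 and the post-meiotic ones of GRMZM2G156713 and GRMZM5G865319 turned after rescaling. The rescaled differences of CP22 and LHCP are not given here.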

How the results depend on the processing

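Of 40 recomputed differences of wip1 and MPI, 36 kept their direction and their side of the 4-fold rule. Rescaling to a sum of 1000000 brought the WT stage difference of wip1 to 1.78 log2, below the rule, turned that of MPI to -0.036, and raised the mitotic genotype difference of MPI to 2.97, which quantile normalization put at 2.25. Counts of called genes moved more. A pseudocount of 0.1 gave 1189 genes higher in hda108 than in WT at the mitotic stage and 1114 after meiosis, and between stages 430 higher and 1641 lower in hda108 and 574 higher and 1048 lower in WT. Rescaling gave 3343 higher and 601 lower in hda108 than in WT at the mitotic stage, 823 and 663 after meiosis, 465 higher and 466 lower between stages in hda108 and 213 higher in WT. Quantile normalization gave 454 higher between stages in hda108 and 228 lower in WT, and median-of-ratios scaling 437 lower in hda108 and 231 lower in WT. A rule of 1 log2 gave 2541 higher and 5063 lower between genotypes at the mitotic stage, 1809 and 3149 after meiosis, 831 and 3805 between stages in hda108 and 1403 and 2757 in WT. A rule of 3 log2 gave 97 and 730 at the mitotic stage, 134 and 378 after meiosis, 75 and 117 between stages in hda108 and 78 and 98 in WT. The cause of these moves was not tested, beyond the wider or narrower rules themselves. Of 96 recomputed counts of the 4 inhibitor and defence lists 7 moved by over 1.5 times, or to or from 0, all by 1 to 3 genes. Smaller changes were not counted as moved. An example is the chitinase, glucanase and PR list, with 7 higher at the mitotic stage as deposited and 9 after rescaling. Keeping every symbol match, an alternative chosen after seeing the data, moved none by over 1.5 times. The anther markers called lower in hda108 moved more, to 0 at the mitotic stage and 3 after meiosis with rescaling and to 1 and 3 with quantile normalization, against 6 and 6 as deposited, while the green tissue markers called higher at the mitotic stage went to 2 with rescaling, against 0. After rescaling, 5 of the 5 nearest named genes of wip1 and 4 of the 5 of MPI were shared with the values as deposited. No paired analysis was possible because the deposited values carry no replicate, and leaving out a replicate was not run for the same reason. Similarity of proteins was not run. Without counts, the depth behind low levels such as the WT values of cc6 and opr6 is unknown.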
